A study of Mus musculus with 12 samples.

Results

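The 34 genes described here belong to the integrated stress response and to the amino acid transport it serves. They were chosen by symbol, with earlier results of these data known. All 34 were found among the 57180 genes of the files, and all 34 were among the 25446 genes tested. They comprise the 4 kinases of eIF2α, 7 transcription factors, 6 feedback genes and growth brakes, 9 amino acid transporters, 4 enzymes of amino acid synthesis and 4 further ATF4 or stress targets. Their mRNA was measured by bulk RNA-seq in 12 libraries of E14-DOX-CRISPRi mouse embryonic stem cells, in 4 groups of 3. Neg ESCs carried control guides, and 3xKD ESCs carried guides against the promoters of Pcx, Me1 and Me2, which encode pyruvate carboxylase and 2 malic enzymes. Both were grown as naive cells in N2B27 with 2i and LIF. Neg EpiLCs and 3xKD EpiLCs are the same lines at day 2 of induction to formative epiblast-like cells with Activin A, Fgf2 and XAV939. All 4 groups come from a doxycycline-inducible CRISPRi line grown from a picked clone, with PiggyBac-borne guides, and all were kept under puromycin, blasticidin and hygromycin. The study kept all its cell lines in low oxygen, which it calls hypoxic. The labels do not state whether a library had doxycycline or vehicle, whereas the study describes its expression data of these groups as coming from doxycycline-treated cells. Its methods describe experiments in general as biological replicates, and the labels do not name separate cultures for replicates 1 to 3, so p-values measure the spread between these libraries.

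The integrated stress response is the pathway by which a cell slows protein synthesis under stress. Any of 4 kinases phosphorylates the initiation factor eIF2α, which lowers translation of most mRNAs and raises that of a few, ATF4 among them. ATF4, often paired with a C/EBP protein or with CHOP (Ddit3), then raises transcription of genes for amino acid import, amino acid synthesis and tRNA charging. Phosphorylation and translation are not measured by RNA-seq, so the values below are mRNA levels only.

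The DNA element bound by ATF4 with a C/EBP partner is the C/EBP-ATF response element, whose core was searched as TGATGNAA on either strand of RefSeq promoter windows (250 bases before to 50 after a start site). Windows were present for 28 of the 34 genes, and 9 of these 28 held the core (32.1%), against 4.51% of 27025 genes with a window. The form TGATGCAA was held by 8 of the 28 (28.6%) and by 1.03% of all genes. Known ATF4 targets were among the genes chosen, so these shares describe the choice of genes and are not a test. The 9 genes that hold the core are printed because 7 of them were called higher in 3xKD ESCs (criteria given with the calls). Capitals mark the core as read on the strand of the gene, TTGCATCA and TTACATCA being the same core on the opposite strand. Each line is read 5′ to 3′ on the strand of the gene, with sequence from RefSeq windows that were placed on GRCm39 by an exact match of the whole window. The stretches of Chac1, Nupr1, Vldlr, Slc1a4 and Trib3 overlap an annotated exon of their own gene (GENCODE vM39) and are therefore given as 30 bases, and those of Atf3, Pycr1, Fgf21 and Slc7a11 overlap none.
Nupr1, minus strand, chr7:126224734-126224763: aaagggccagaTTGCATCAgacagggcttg
Trib3, minus strand, chr2:152185948-152185977: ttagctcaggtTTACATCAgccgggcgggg
Vldlr, plus strand, chr19:27194209-27194238: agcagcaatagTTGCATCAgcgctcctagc
Slc1a4, minus strand, chr11:20282699-20282728: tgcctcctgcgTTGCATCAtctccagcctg
Pycr1, minus strand, chr11:120534649-120534698: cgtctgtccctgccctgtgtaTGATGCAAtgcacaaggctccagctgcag
Chac1, plus strand, chr2:119181519-119181548: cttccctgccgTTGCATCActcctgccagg
Atf3, minus strand, chr1:190915612-190915661: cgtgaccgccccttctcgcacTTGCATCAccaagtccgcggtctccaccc
Fgf21, minus strand, chr7:45265025-45265074: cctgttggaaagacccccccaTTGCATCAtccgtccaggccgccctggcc
Slc7a11, minus strand, chr3:50398081-50398149: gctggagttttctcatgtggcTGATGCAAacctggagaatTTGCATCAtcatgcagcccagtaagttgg

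The first base of the core lay at -110 from the start site of its window in Nupr1 and Atf3, at -193 in Chac1, at -200 in Vldlr, at -103 in Pycr1 and at -139 in Fgf21. A gene was counted as holding the core where any of its windows did, and Vldlr has a further window, at another start site, without a match. Slc7a11 held it at both -66 and -47, on opposite strands. In Slc1a4 it lay at -4, across the start site, and in Trib3 at position 15 after it. A match of letters is a description of the window and not a measured binding site, and the search says nothing of bases outside the window.

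Libraries held between 11221023 and 19652197 estimated counts. The targeted genes were lower in every 3xKD library than in every Neg library of the same state: by 1.14 (Pcx), 0.89 (Me1) and 0.95 (Me2) on the log2 scale in ESCs, and by 1.05, 1.05 and 0.98 in EpiLCs. In the labels, the field for cell type follows the line and not the state (every Neg library is given as ESCs there, every 3xKD library as EpiLCs), whereas the titles give both states for both lines. Titles were used, and in both lines all 7 naive markers were lower and all 6 formative markers higher in the libraries titled EpiLCs. The 7 naive markers summed to 4673 to 4821 CPM (counts scaled to library size) in Neg ESCs and to 3740 to 3821 in 3xKD ESCs, and to 244.5 to 255.6 in Neg EpiLCs and 390.2 to 401.1 in 3xKD EpiLCs. The 6 formative markers summed to 2862 to 3220 CPM in Neg EpiLCs and to 1667 to 1718 in 3xKD EpiLCs. Marker sums of fibroblasts (5 genes, 3.82 to 8.62 CPM over all libraries), primitive endoderm (6 genes, 22.2 to 32.9) and trophectoderm (4 genes, 23.9 to 40.1) were low throughout, and Elf5, Col3a1 and Dcn were at no more than 0.403 CPM in any library. Of these markers, 1 fibroblast, 2 primitive endoderm and 1 trophectoderm gene were called higher and 1 trophectoderm gene lower in 3xKD ESCs, and 1 fibroblast and 1 trophectoderm gene higher and 1 primitive endoderm gene lower in 3xKD EpiLCs. The part of these marker differences in the results below was not tested, and in bulk samples fewer cells of a type and less RNA per cell cannot be told apart.

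A gene was called where the adjusted p of edgeR's quasi-likelihood test was under 0.01 and its absolute log2 fold change was above 0.58. In ESCs, 14 of the 34 genes were higher in 3xKD than in Neg, against 8.50% of all genes tested, and 3 were lower, against 6.76%. In EpiLCs, 13 were higher, against 7.88% of all genes, and 2 were lower, against 5.35%. Since the genes were chosen with earlier results of these data known, these shares are a description and not an independent test. The median log2 fold change of the 34 genes was 0.43 in ESCs and 0.24 in EpiLCs, beside 0.03 over all genes tested in each state. Higher in both states were 12 genes: Ddit3, Nupr1, Trib3, Chac1, Slc7a5, Slc6a9, Slc1a4, Slc1a5, Cth, Pycr1, Aldh18a1 and Vldlr. Lower in both were Eif2ak1 and Slc38a2. A further 16 genes were called in neither state. On chromosome 16, where none of the 34 lies, the 454 genes averaging 1 CPM or more had in each state a median of 0.30 on the log2 scale, against -0.05 to 0.06 on the other autosomes and the X, and this difference between the lines cannot be told apart from the knockdown. All 34 are shown by role in the plot of log2 fold changes.

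**Figure D1:**
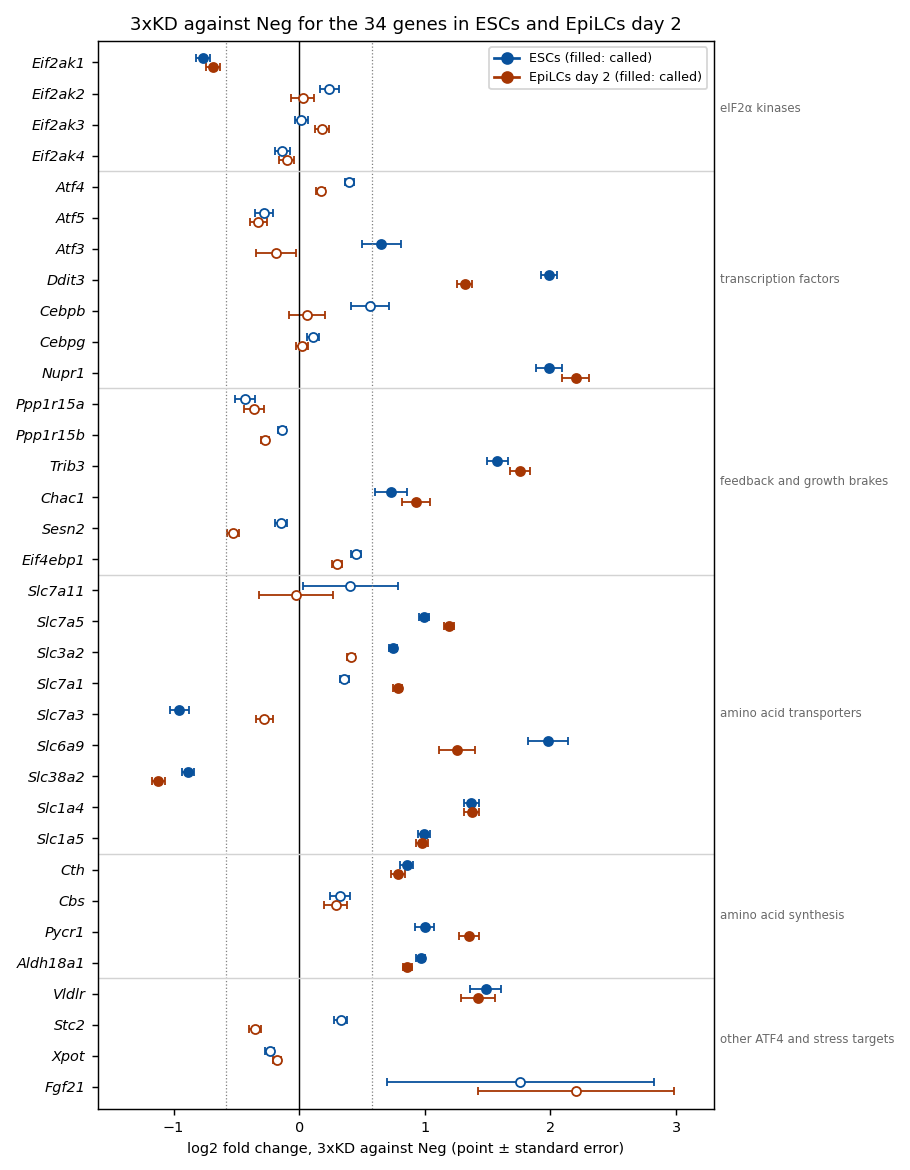
Log2 fold change (horizontal axis) of 3xKD against Neg for the 34 genes, grouped by role, in ESCs (blue) and EpiLCs day 2 (brown); points are estimates, bars are standard errors, filled points are called and dotted lines mark the limit of 0.58. Ddit3 (1.99 in ESCs, 1.32 in EpiLCs) and Nupr1 (1.99 and 2.20) lie far to the right and Slc38a2 (-0.89 and -1.12) to the left, while the points of Fgf21 rest on at most 12 counts a library.

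Of the 4 eIF2α kinases, only Eif2ak1 was called in 3xKD against Neg, and it was lower. Eif2ak1 encodes HRI, the kinase that answers to heme shortage and to signals from stressed mitochondria. It stood at 50.4, 53.8 and 52.9 CPM in Neg ESCs and at 30.5, 32.4 and 29.6 in 3xKD ESCs, a log2 fold change of -0.77 (SE 0.054, adjusted p = 7.8e-09). In EpiLCs it stood at 41.9, 40.1 and 44.5 CPM in Neg and at 25.7, 26.1 and 27.0 in 3xKD (-0.68, SE 0.055, adjusted p = 4.1e-08). The Neg and 3xKD libraries did not overlap in either state. Aimp2, on the opposite strand, overlaps Eif2ak1, and its own log2 fold changes were -0.19 and -0.43, neither of them called. The study names a directional library kit, but whether counting used strand is not given in the sources used here.

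Eif2ak2 encodes PKR, the kinase activated by double-stranded RNA. It read 23.8, 22.2 and 21.6 CPM in Neg ESCs and 28.0, 25.4 and 26.3 in 3xKD ESCs (log2 fold change 0.24, adjusted p = 0.018). In EpiLCs Eif2ak2 read 8.81, 10.4 and 8.60 CPM in Neg and 9.74, 9.59 and 8.99 in 3xKD, and the lines overlapped. Its clearest difference was between states, at -1.28 (SE 0.084) on the log2 scale from ESCs to EpiLCs in Neg and -1.49 (SE 0.082) in 3xKD. Eif2ak3, which encodes the endoplasmic reticulum kinase PERK, overlapped between the lines in ESCs, with 37.6, 39.2 and 42.1 CPM in Neg and 40.6, 39.8 and 40.2 in 3xKD. In EpiLCs it read 33.5, 32.1 and 35.5 CPM in Neg and 37.0, 39.0 and 38.6 in 3xKD (log2 fold change 0.18, adjusted p = 0.0139). Eif2ak4, which encodes GCN2, the sensor of uncharged tRNA, read 37.1, 41.8 and 37.9 CPM in Neg ESCs and 36.6, 34.6 and 35.3 in 3xKD ESCs. Its EpiLC libraries read 30.7, 33.7 and 31.0 CPM in Neg and 29.1, 30.4 and 29.7 in 3xKD, and its log2 fold changes of -0.13 and -0.10 did not pass the test. The Neg and 3xKD libraries of Eif2ak4 did not overlap in either state, and all lay within 29.1 to 41.8 CPM. From ESCs to EpiLCs its log2 fold changes were -0.295 in Neg and -0.258 in 3xKD, under the fold limit.

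Among the transcription factors, Ddit3 and Nupr1 were higher in both states, Atf3 in ESCs, and the mRNA of Atf4 itself moved little. Atf4 read 160, 166 and 170 CPM in Neg ESCs and 218, 218 and 217 in 3xKD ESCs. Its difference of 0.40 on the log2 scale (SE 0.037, adjusted p = 1.93e-07) was beyond the spread of the libraries, which did not overlap, and under the fold limit. In EpiLCs it read 169, 153 and 161 CPM in Neg and 186, 180 and 179 in 3xKD, a log2 difference of 0.17 (SE 0.037, adjusted p = 0.00137). ATF4 protein is set largely by translation of its mRNA, which these libraries do not measure.

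Ddit3 encodes CHOP, a C/EBP-family factor that partners with ATF4. It read 11.9, 12.3 and 12.7 CPM in Neg ESCs and 48.2, 49.4 and 49.1 in 3xKD ESCs, a 3.96-fold difference (log2 1.99, SE 0.063, adjusted p = 1.4e-12). Its EpiLC libraries read 17.9, 19.5 and 19.3 CPM in Neg and 47.8, 43.6 and 49.6 in 3xKD, a 2.49-fold difference (log2 1.32, SE 0.060, adjusted p = 5.61e-11). The 3xKD libraries of the 2 states thus overlapped, and the Neg libraries did not, being higher in EpiLCs. Ddit3 overlaps Mars1 and Mbd6 on the opposite strand, and their log2 fold changes in ESCs were 0.32 and 0.22, neither of them called. A second gene ID of the same symbol held 55 counts over all 12 libraries and was not added.

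Nupr1 encodes a small stress-induced chromatin protein. It read 6.83, 8.19 and 7.24 CPM in Neg ESCs and 28.7, 29.8 and 30.1 in 3xKD ESCs (3.96-fold, log2 1.99, SE 0.10, adjusted p = 2.64e-10). In EpiLCs it read 4.50, 6.04 and 5.75 CPM in Neg and 24.2, 22.6 and 28.0 in 3xKD (4.59-fold, log2 2.20, SE 0.11, adjusted p = 1.51e-10). Every 3xKD library lay well above every Neg library. Atf3, an early stress factor that ATF4 and CHOP regulate, was low: 4.34, 4.82 and 6.02 CPM in Neg ESCs and 7.68, 9.69 and 6.79 in 3xKD ESCs. Its log2 fold change of 0.66 (SE 0.15, adjusted p = 0.00212) in ESCs rested on single libraries, since the call was lost without replicate 1 of Neg ESCs (0.57), replicate 2 of Neg ESCs (0.61) or replicate 2 of 3xKD ESCs (0.50), and also with transcript-length offsets (0.58). In EpiLCs Atf3 read 4.56, 4.36 and 5.06 CPM in Neg and 4.28, 4.03 and 4.0 in 3xKD, with no call.

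Cebpb, Cebpg and Atf5, the remaining factors, were called in neither state. Cebpb, a C/EBP partner of ATF4, had a log2 fold change of 0.56 in ESCs (SE 0.15, adjusted p = 0.00553), just under the fold limit, and of 0.06 in EpiLCs. It was called in ESCs without replicate 3 of Neg ESCs, replicate 3 of 3xKD ESCs, replicate 1 or 2 of Neg EpiLCs or replicate 3 of 3xKD EpiLCs (0.59 to 0.69), and on all 12 libraries with upper-quartile factors (0.586, adjusted p = 0.00409). Cebpg, another partner, lay between 37.6 and 42.4 CPM in all 12 libraries. Atf5, a related factor that is also controlled by translation, had log2 fold changes of -0.28 in ESCs and -0.32 in EpiLCs (adjusted p = 0.00406 and 0.0009), beyond the spread and under the fold limit.

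**Figure D2:**
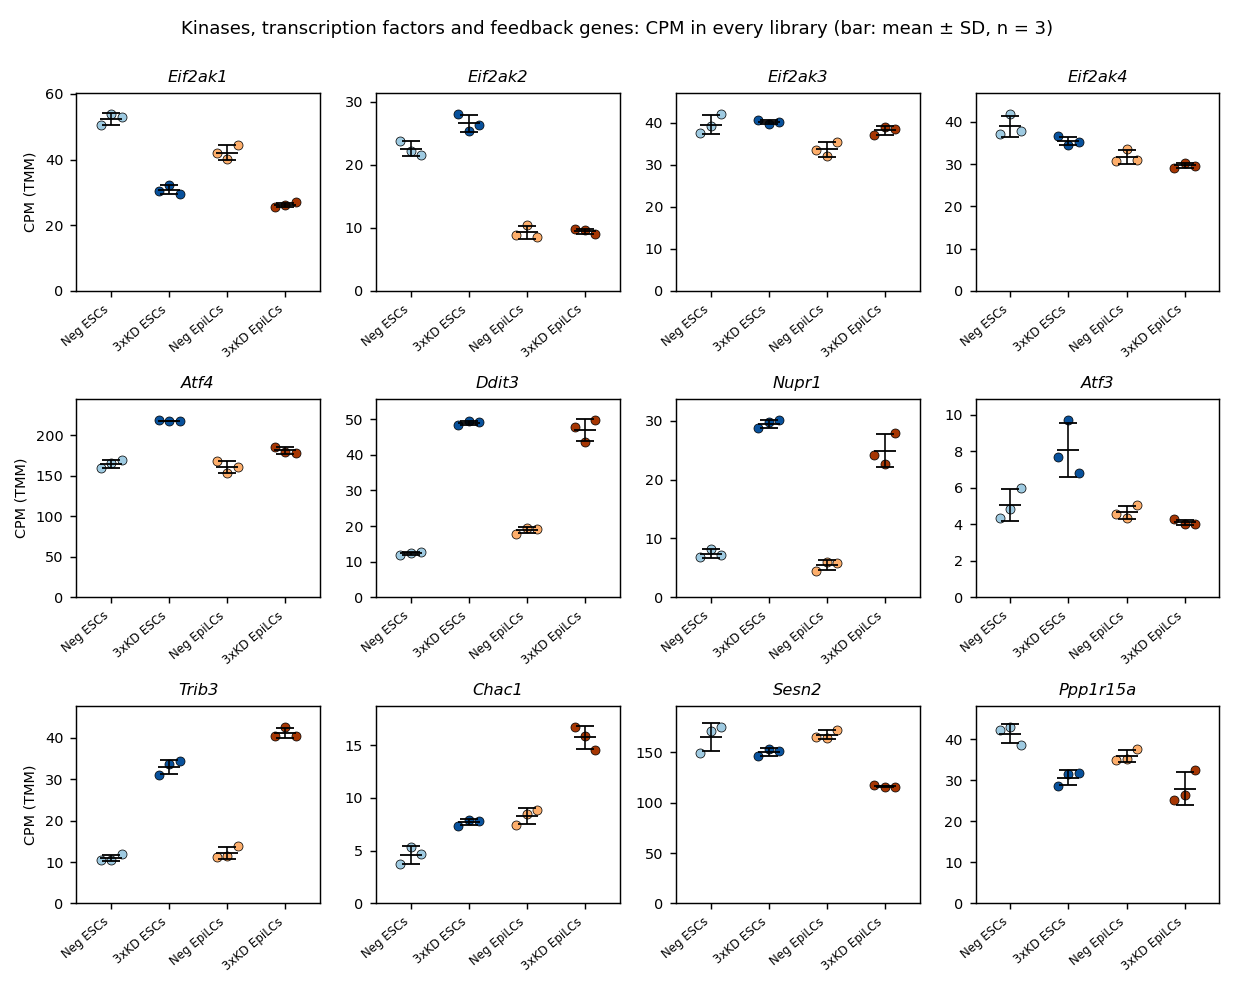
CPM (vertical axes, from 0) in each of the 12 libraries for the 4 kinases, 4 transcription factors and 4 feedback genes; points are libraries and bars are mean ± SD (n = 3). Ddit3, Nupr1 and Trib3 separate 3xKD from Neg in both states, Atf4 differs by less, and Eif2ak1 is the kinase that is lower in 3xKD.

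Of the 6 feedback genes and growth brakes, Trib3 and Chac1 were higher in 3xKD in both states, and the 2 phosphatase subunits that reverse eIF2α phosphorylation were not. Trib3 encodes a pseudokinase that CHOP and ATF4 induce and that restrains ATF4. It read 10.6, 10.5 and 11.9 CPM in Neg ESCs and 31.0, 33.6 and 34.4 in 3xKD ESCs (2.99-fold, log2 1.58, SE 0.083, adjusted p = 2.7e-10). Its EpiLC libraries read 11.2, 11.4 and 14.0 CPM in Neg and 40.6, 42.7 and 40.5 in 3xKD (3.38-fold, log2 1.76, SE 0.081, adjusted p = 6.81e-11). Chac1 encodes an enzyme that degrades glutathione. It read 3.72, 5.37 and 4.69 CPM in Neg ESCs and 7.37, 7.93 and 7.77 in 3xKD ESCs (log2 0.73, SE 0.13, adjusted p = 0.00016). In EpiLCs Chac1 read 7.45, 8.52 and 8.85 CPM in Neg and 16.8, 15.9 and 14.6 in 3xKD (log2 0.93, SE 0.11, adjusted p = 3.94e-06). Chac1 thus had its lowest libraries in Neg ESCs and its highest in 3xKD EpiLCs, with 3xKD ESCs and Neg EpiLCs overlapping in between.

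Ppp1r15a (GADD34, the stress-induced subunit of the eIF2α phosphatase) had log2 fold changes of -0.43 in ESCs and -0.36 in EpiLCs (adjusted p = 0.000379 and 0.002). Ppp1r15b, the constitutive subunit, had -0.14 and -0.27. Sesn2, a leucine sensor that restrains mTORC1, had -0.14 in ESCs and -0.53 in EpiLCs, the latter beyond the spread (adjusted p = 1.77e-07) with 164 to 172 CPM in Neg and 115 to 117 in 3xKD. Eif4ebp1, a repressor of cap-dependent translation, had 0.45 and 0.30. None of these 4 genes reached the fold limit, so none was called.

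The 9 amino acid transporters divided by gene rather than moving as a class, with 5 called higher and 2 called lower in ESCs, while EpiLCs had 5 higher and 1 lower. Slc7a5 (LAT1) exchanges large neutral amino acids such as leucine, as a heterodimer with Slc3a2 (4F2hc). Slc7a5 read 126, 140 and 134 CPM in Neg ESCs and 269, 263 and 265 in 3xKD ESCs (1.99-fold, log2 0.99, SE 0.038, adjusted p = 8e-12). In EpiLCs it read 131, 134 and 137 CPM in Neg and 314, 305 and 300 in 3xKD (2.28-fold, log2 1.19, SE 0.038, adjusted p = 1.75e-12). Its Neg libraries overlapped between the states. Slc3a2 read 137, 130 and 131 CPM in Neg ESCs and 222, 228 and 218 in 3xKD ESCs (log2 0.75, SE 0.034, adjusted p = 4.53e-11). In EpiLCs Slc3a2 read 213, 220 and 221 CPM in Neg and 286, 296 and 288 in 3xKD, a log2 difference of 0.41 (SE 0.033, adjusted p = 3.09e-08) that was beyond the spread and under the fold limit. The noncoding gene Snhg1 lies on the opposite strand of Slc3a2, with log2 fold changes of 0.24 in ESCs and -0.14 in EpiLCs.

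Per length, in TPM (transcript abundance scaled to length and depth), the light chain Slc7a5 stood below the heavy chain Slc3a2 in every library. The log2 ratio of their TPM was -1.36 to -1.18 in Neg ESCs and -1.34 to -1.22 in 3xKD ESCs. It was -2.43 to -2.23 in Neg EpiLCs and -1.64 to -1.44 in 3xKD EpiLCs. By TPM the ratio in 3xKD EpiLCs lay between those of ESCs and of Neg EpiLCs, and 3xKD and Neg EpiLC libraries did not overlap. In ESCs the TPM ratios of the lines overlapped, whereas counts gave log2 fold changes of 0.99 for Slc7a5 and 0.75 for Slc3a2. Mean CPM of Slc7a5 and Slc3a2 were 133 and 133 in Neg ESCs and 266 and 223 in 3xKD ESCs. In EpiLCs they were 134 and 218 in Neg and 306 and 290 in 3xKD. The place of 3xKD EpiLCs among the groups thus depended on the measure, and it is a description with no test.

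Slc1a4 and Slc1a5 (ASCT1 and ASCT2) exchange small neutral amino acids, alanine, serine and cysteine for Slc1a4 and also glutamine for Slc1a5. Slc1a4 read 24.3, 27.0 and 25.6 CPM in Neg ESCs and 64.2, 67.5 and 67.5 in 3xKD ESCs (2.59-fold, log2 1.37, SE 0.060, adjusted p = 3.7e-11). In EpiLCs Slc1a4 read 22.5, 27.1 and 25.0 CPM in Neg and 66.1, 64.0 and 63.1 in 3xKD (2.59-fold, log2 1.37, SE 0.060, adjusted p = 4.16e-11). Its levels overlapped between the states within each line. Slc1a5 read 92.1, 92.8 and 88.7 CPM in Neg ESCs and 175, 186 and 184 in 3xKD ESCs (1.99-fold, log2 0.99, SE 0.045, adjusted p = 5.37e-11). In EpiLCs Slc1a5 read 45.8, 52.0 and 49.4 CPM in Neg and 98.3, 92.2 and 99.3 in 3xKD (1.97-fold, log2 0.98, SE 0.048, adjusted p = 1.34e-10). Slc1a5 was thus lower in EpiLCs in both lines, and 3xKD EpiLCs lay about at the level of Neg ESCs.

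Slc7a1 and Slc7a3 (CAT1 and CAT3) both carry cationic amino acids such as arginine and lysine, and their values went in opposite directions in 3xKD. Slc7a1 read 118, 116 and 115 CPM in Neg ESCs and 148, 149 and 151 in 3xKD ESCs (log2 0.36, SE 0.035, adjusted p = 3.27e-07, under the fold limit). In EpiLCs Slc7a1 read 41.8, 44.2 and 41.1 CPM in Neg and 71.7, 74.6 and 72.3 in 3xKD (log2 0.78, SE 0.038, adjusted p = 1.31e-10, called). Slc7a3 read 34.9, 43.1 and 42.6 CPM in Neg ESCs and 22.0, 19.9 and 20.7 in 3xKD ESCs (log2 -0.95, SE 0.078, adjusted p = 4.2e-08, called). The Neg and 3xKD libraries of both genes did not overlap in ESCs. In EpiLCs Slc7a3 read 74.9, 78.5 and 75.2 CPM in Neg and 67.3, 63.4 and 57.9 in 3xKD (log2 -0.28, SE 0.069, adjusted p = 0.00374, under the fold limit).

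Slc38a2 (SNAT2), a sodium-coupled carrier of small neutral amino acids that is known as an ATF4 target and as a gene induced by amino acid shortage, fell in both states. It read 220, 232 and 246 CPM in Neg ESCs and 133, 118 and 127 in 3xKD ESCs (log2 -0.89, SE 0.051, adjusted p = 7.72e-10). Its EpiLC libraries read 732, 666 and 712 CPM in Neg and 336, 321 and 314 in 3xKD (log2 -1.12, SE 0.049, adjusted p = 4.37e-11). No Neg and 3xKD libraries overlapped within a state, and no ESC and EpiLC libraries overlapped within a line.

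Slc6a9 (GLYT1), a glycine carrier, read 3.19, 2.68 and 2.14 CPM in Neg ESCs and 9.40, 10.7 and 10.8 in 3xKD ESCs (log2 1.98, SE 0.16, adjusted p = 4.24e-08). In EpiLCs it read 4.62, 6.98 and 5.82 CPM in Neg and 14.3, 14.4 and 12.7 in 3xKD (log2 1.25, SE 0.14, adjusted p = 1.97e-06). Both calls were lost with offsets for the mean transcript length, at a log2 fold change of 0.52 in ESCs (adjusted p = 0.628) and 1.09 in EpiLCs (adjusted p = 0.223). Its estimated transcripts differed among libraries of the same group: the leading transcript held 80.8%, 83.8% and 85.6% of the gene's TPM in the 3 Neg ESC libraries, and it was another transcript in replicate 2 than in replicates 1 and 3. Slc7a11 (xCT), the cystine importer, lay at 0.36 to 0.48 CPM in Neg ESCs and 0.43 to 0.80 in 3xKD ESCs, which overlapped, as did Neg and 3xKD EpiLCs at 0.99 to 1.71 and 1.25 to 1.36. It had no more than 27 counts in any library.

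**Figure D3:**
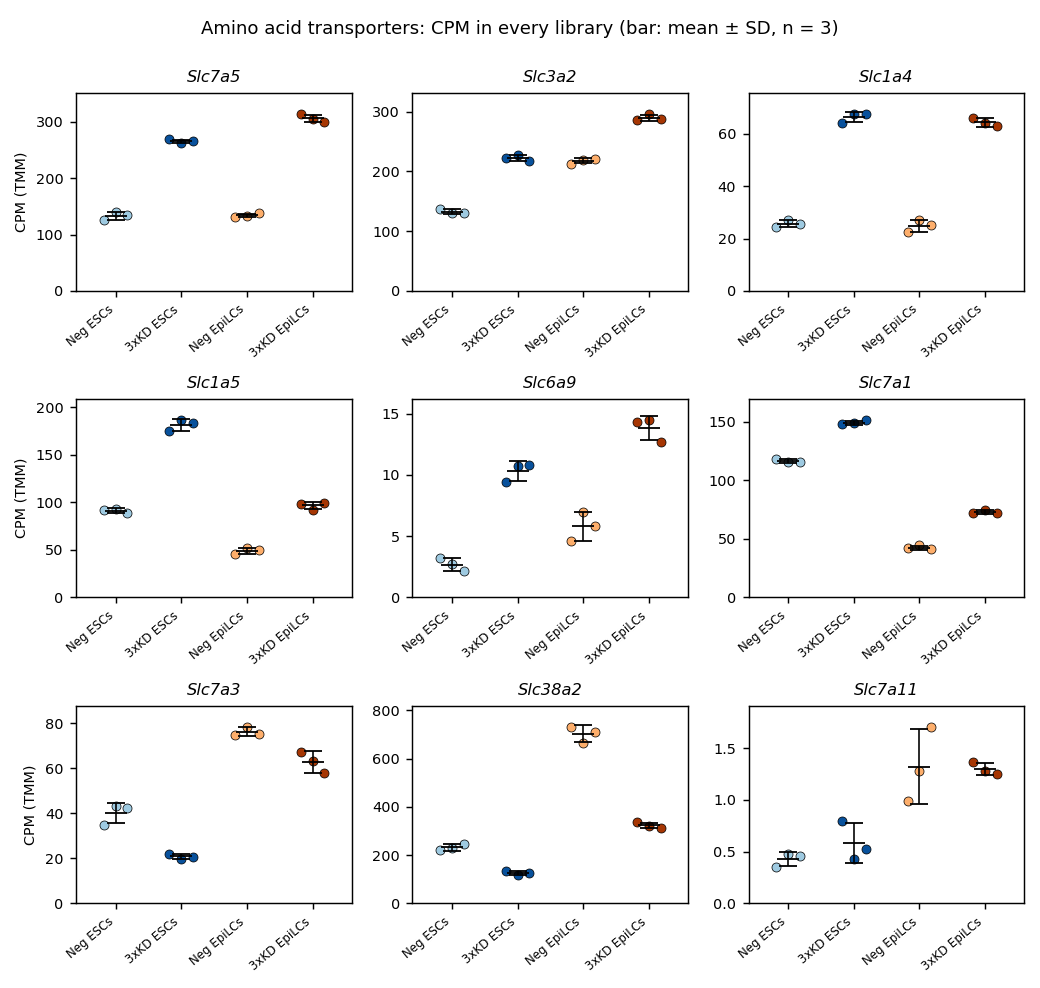
CPM (vertical axes, from 0) of the 9 amino acid transporters in each of the 12 libraries; points are libraries and bars are mean ± SD (n = 3). Slc7a5, Slc1a4 and Slc1a5 are higher in 3xKD in both states, Slc38a2 is lower in 3xKD (118 to 133 against 220 to 246 CPM in ESCs) and higher in EpiLCs, and Slc7a1 and Slc7a3 run in opposite directions between the states.

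Among the 4 enzymes of amino acid synthesis, 3 were higher in 3xKD in both states. Pycr1 and Aldh18a1 catalyse successive steps in making proline from glutamate. Pycr1 read 13.1, 15.3 and 14.5 CPM in Neg ESCs and 27.6, 29.1 and 29.5 in 3xKD ESCs (log2 1.00, SE 0.076, adjusted p = 1.67e-08). In EpiLCs Pycr1 read 11.5, 13.6 and 11.9 CPM in Neg and 33.0, 31.2 and 30.1 in 3xKD (log2 1.35, SE 0.076, adjusted p = 6.39e-10). Every 3xKD library held at least 27.6 CPM of Pycr1 and no Neg library more than 15.3. Aldh18a1 read 69.0, 65.2 and 67.4 CPM in Neg ESCs and 134, 128 and 133 in 3xKD ESCs (log2 0.97, SE 0.036, adjusted p = 6.51e-12). In EpiLCs Aldh18a1 read 67.4, 68.9 and 70.5 CPM in Neg and 127, 125 and 124 in 3xKD (log2 0.86, SE 0.036, adjusted p = 2.69e-11). Between the states, Aldh18a1 differed by 0.04 on the log2 scale in Neg and by -0.07 in 3xKD, neither called.

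Cth and Cbs are the 2 enzymes of transsulfuration, which makes cysteine from homocysteine, and only Cth was called. Cth read 27.6, 28.9 and 27.2 CPM in Neg ESCs and 49.0, 50.1 and 52.3 in 3xKD ESCs (log2 0.86, SE 0.053, adjusted p = 1.58e-09). In EpiLCs Cth read 20.02, 21.4 and 19.7 CPM in Neg and 34.8, 36.2 and 34.3 in 3xKD (log2 0.79, SE 0.055, adjusted p = 7.72e-09). Cbs had log2 fold changes of 0.32 and 0.29 (adjusted p = 0.0039 in ESCs and 0.018 in EpiLCs).

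Of the remaining targets, Vldlr, a lipoprotein receptor, was called in both states. It read 9.40, 11.3 and 7.44 CPM in Neg ESCs and 26.7, 26.1 and 25.1 in 3xKD ESCs (log2 1.48, SE 0.12, adjusted p = 5.42e-08). In EpiLCs Vldlr read 4.93, 6.17 and 4.74 CPM in Neg and 15.3, 14.1 and 13.0 in 3xKD (log2 1.42, SE 0.14, adjusted p = 2.9e-07). Its 3xKD libraries lay above its Neg libraries in each state. Stc2, a secreted glycoprotein, differed in opposite directions, with log2 fold changes of 0.33 in ESCs (46.5 to 50.2 CPM in Neg, 58.8 to 64.5 in 3xKD) and -0.35 in EpiLCs (76.7 to 81.0 and 59.9 to 65.4), both under the fold limit. Xpot, the tRNA exporter, had -0.24 and -0.18. Fgf21, a secreted stress hormone, was at the edge of detection, with 0, 1 and 1 counts in Neg ESCs and 1, 4 and 3 in 3xKD ESCs. In EpiLCs Fgf21 had 1, 4 and 0 counts in Neg and 12, 6 and 7 in 3xKD, and it was called in neither state, though it was called in EpiLCs without replicate 2 of Neg EpiLCs.

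Set beside the promoter search, 7 of the 11 genes called higher in ESCs that have a window held the core, against 2 of the 17 others with a window. In EpiLCs the counts were 6 of 10 and 3 of 18. The others include the kinases and Atf4, which were chosen for roles upstream of the targets. These counts are therefore a description, and a role of ATF4 in the calls was not tested. Fgf21 and Slc7a11 held the core and were not called, both being among the lowest of the 34 genes. Ddit3, Slc6a9, Slc3a2 and Aldh18a1 were called in ESCs without the core in their windows.

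Per length, the order of levels among the 34 genes in Neg ESCs began with Eif4ebp1 (163 ± 35.6 TPM, SD, n = 3), Slc3a2 (75.4 ± 8.86) and Atf4 (69.5 ± 12.4). The ranges of Slc3a2 and Atf4 overlapped, though Slc3a2 was above Atf4 within each Neg ESC library (71.0 and 60.6, 85.6 and 83.7, 69.6 and 64.2 TPM). The order of levels is a description with no test. This order ended with Slc7a11 (0.057 ± 0.013) and Fgf21 (0.038 ± 0.037), which overlapped. In 3xKD ESCs, Ddit3 (44.3 ± 5.34 TPM) and Nupr1 (42.8 ± 7.26) stood side by side in the order and did not differ beyond their spread, having been at 12.2 ± 2.39 and 10.5 ± 5.57 in Neg ESCs. In Neg EpiLCs, Slc38a2 stood at 117 ± 6.06 TPM, above Atf4 at 81.3 ± 3.75 with no overlap.

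From ESCs to EpiLCs, 8 of the 34 genes were higher in Neg cells, against 9.78% of all genes tested, and 5 were lower, against 11.0%. In 3xKD cells 4 were higher, against 9.42%, and 6 were lower, against 9.32%. Chac1, Slc7a3, Slc38a2 and Slc7a11 were higher in EpiLCs in both lines. Slc38a2 showed log2 fold changes of 1.59 (SE 0.050) in Neg and 1.36 (SE 0.051) in 3xKD, and Slc7a3 0.91 (SE 0.071) and 1.59 (SE 0.076). The call of Slc7a11 in 3xKD (1.14, adjusted p = 0.00896) was lost without replicate 2 or 3 of Neg ESCs, replicate 2 or 3 of 3xKD ESCs, replicate 2 of Neg EpiLCs or any replicate of 3xKD EpiLCs, at values of 0.96 to 1.18, and by DESeq2 (adjusted p = 0.0393), without the filter on low counts (0.016), with the replicate block (0.0153), with transcript-length offsets (0.152) and in a fit of only the groups compared (0.0141). Lower in EpiLCs in both lines were Eif2ak2, Slc7a1 (-1.46 in Neg, SE 0.038, and -1.03 in 3xKD, SE 0.036), Slc1a5 (-0.89 and -0.91), Cbs (-1.02 and -1.05) and Vldlr (-0.82 and -0.88). Ddit3 (0.61), Slc3a2 (0.72), Slc6a9 (1.15) and Stc2 (0.71) were called higher in Neg cells and not in 3xKD, where they read -0.06, 0.38, 0.42 and 0.03. Atf3 was called lower in 3xKD (-0.97) and read -0.14 in Neg. Atf5 (0.51 in Neg) was called without replicate 2 of Neg ESCs (0.59) or replicate 1 of Neg EpiLCs (0.58), and on all 12 libraries with upper-quartile factors (0.589). With transcript-length offsets the Neg values of Slc6a9 and Cbs turned to -0.53 and 0.72, neither called, and Slc7a11 in Neg and Vldlr in 3xKD (-0.78) lost their calls. Scaling by library size alone took Ddit3 in Neg to 0.577, under the fold limit. These comparisons share libraries with those of 3xKD against Neg, so each is given with its own values.

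The difference between the 3xKD effects in EpiLCs and in ESCs was tested as an interaction, called at an adjusted p under 0.01. It was positive for 2 of the 34 genes, against 4.76% of all genes, and negative for 5, against 5.27%. The positive count of 2 of 34 is not set apart from the share over all genes. Slc7a3 (0.68, SE 0.10, adjusted p = 0.000213) fell in ESCs and was nearer to Neg in EpiLCs. Slc7a1 (0.42, SE 0.052, adjusted p = 2.22e-05) was higher in 3xKD in both states, by more in EpiLCs (0.78) than in ESCs (0.36). The negative genes were Stc2 (-0.68, SE 0.071, adjusted p = 4.27e-06), Ddit3 (-0.67, SE 0.087, adjusted p = 4.36e-05), Sesn2 (-0.39, SE 0.068, adjusted p = 0.000731), Slc3a2 (-0.34, SE 0.047, adjusted p = 8.16e-05) and Atf4 (-0.23, SE 0.053, adjusted p = 0.00602). For Trib3 (0.18), Nupr1 (0.21), Chac1 (0.20), Slc1a4 (0.00) and Slc1a5 (-0.01) the difference did not pass the test. With transcript-length offsets only Slc7a3 and Ddit3 stayed called, while calls over all genes fell to 1.32% positive and 1.55% negative. Atf4 was also lost with library size alone (-0.15, adjusted p = 0.0598) and without any 1 of replicates 1 and 2 of Neg ESCs, 2 and 3 of 3xKD ESCs, 3 of Neg EpiLCs and 2 of 3xKD EpiLCs (-0.23 to -0.21). Calls were gained for Slc7a5 without replicate 1 of Neg ESCs (0.24), for Atf3 without replicate 3 of Neg ESCs (-0.99) or of 3xKD ESCs (-0.945), for Slc6a9 without replicate 1 of Neg EpiLCs (-0.90) and for Slc38a2 without replicate 2 of Neg EpiLCs (-0.30). On all 12 libraries Slc7a5 was also called by DESeq2 (0.21, adjusted p = 0.00206), with RLE factors, with library size alone, with filterByExpr, with no filter and with robust estimation (0.20 to 0.27). Slc38a2 was also called by DESeq2 (-0.22, adjusted p = 0.0069) and with no filter, and Atf3 and Slc6a9 with no filter and with robust estimation.

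Related genes were counted in 7 further lists, shown in the plot of related lists, with no test of a list. These lists too were written with earlier results of these data known. Over all genes tested, 8.50% were called higher and 6.76% lower in ESCs, and 7.88% and 5.35% in EpiLCs. None of the 15 genes for eIF2, eIF2B and the mitochondrial relay to HRI was called in either state, and their median log2 fold changes were -0.05 in ESCs and -0.03 in EpiLCs. Of 13 other ATF4 targets in amino acid metabolism, 7 were higher in ESCs and 9 in EpiLCs, and none was lower (medians 0.79 and 0.77). Pck2, the mitochondrial PEP carboxykinase, led them at 1.43 in ESCs and 1.74 in EpiLCs, with Gpt2, an alanine aminotransferase, at 1.29 and 1.40. Phgdh, which opens serine synthesis, was at 1.08 in ESCs, and Bcat1, a branched-chain aminotransferase, at 1.22 in EpiLCs and 0.06 in ESCs. Of 21 other ATF4 and CHOP targets, 9 were higher in ESCs and 11 in EpiLCs, and none was lower (medians 0.56 and 0.78). They included Ero1a, an oxidase of the endoplasmic reticulum (1.72 and 1.65), Ndrg1 (1.54 and 1.84), Ddit4, an mTORC1 inhibitor (1.69 in ESCs, called, and 0.56 in EpiLCs, not called), and Jdp2 (1.42 in EpiLCs). Ero1a, Ndrg1 and Ddit4 are also known as genes induced by hypoxia, and the study kept all its lines in low oxygen.

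Of the 20 cytosolic aminoacyl-tRNA synthetases, 3 were higher in each state, against 8.50% of all genes in ESCs and 7.88% in EpiLCs. None was lower (medians 0.31 and 0.13). In ESCs these were Vars1 (0.81), Sars1 (0.70) and Gars1 (0.64), and in EpiLCs Sars1 (0.85), Vars1 (0.66) and Cars1 (0.60). Of 19 genes of the ATF6 and XBP1 branches of the endoplasmic reticulum unfolded protein response, Dnajb9 was lower in ESCs (-0.73), and the chaperone Hsp90b1 (0.72) and the disulfide isomerase Pdia6 (0.59) were higher in EpiLCs. None of 8 genes of the mitochondrial unfolded protein response was called in either state. In lists as short as these 20, 19 and 8 genes, such counts are not set apart from the shares over all genes. The list of other amino acid transporters held 26 genes of such families, not all of which carry amino acids (Slc43a3 and Slc6a8 among these). Of the 26, ESCs had 5 higher and 3 lower, and EpiLCs had 5 higher and none lower (medians 0.17 in both). Slc7a8, the LAT2 light chain (1.40 and 1.17), and Slc38a3, a glutamine carrier (1.29 and 1.33), were higher in both, Slc43a3 was at 1.19 in EpiLCs, and Slc6a15 (-2.26) was lower in ESCs at under 1.5 CPM. Lonp1 and Dnajc3 each stand in 2 of the lists.

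**Figure D4:**
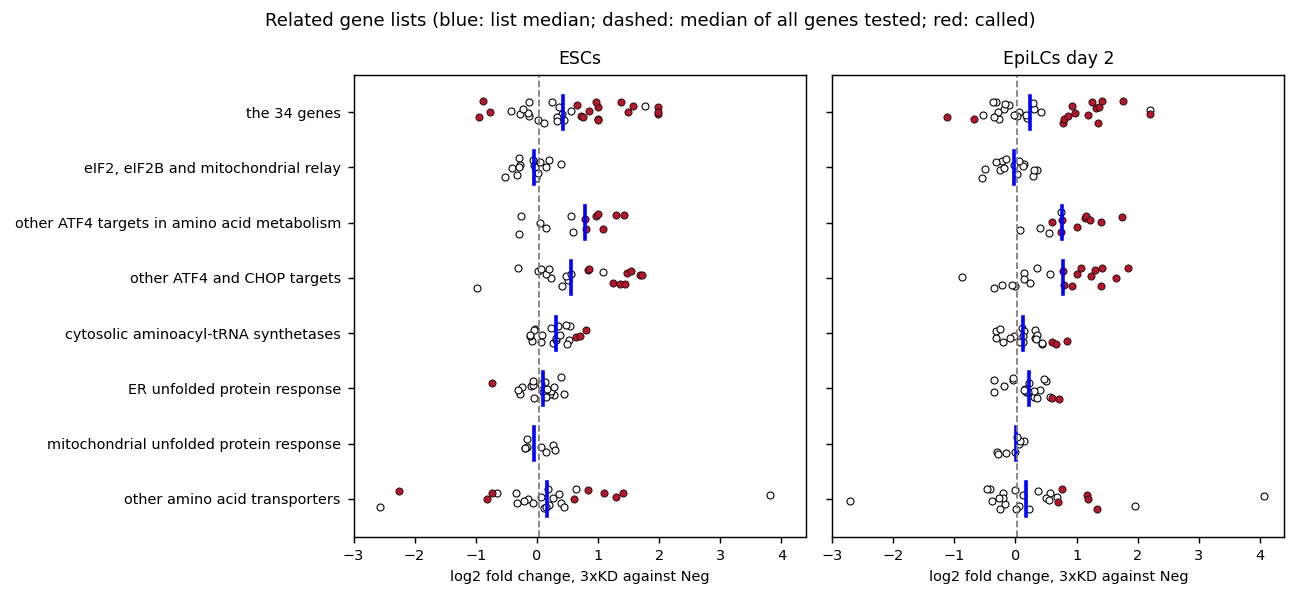
Log2 fold change of 3xKD against Neg (horizontal axes) for the 34 genes and 7 related lists in ESCs and EpiLCs day 2; each point is a gene, red points are called, blue bars are list medians and dashed lines are the median of all genes tested (0.03). The lists of other ATF4 targets sit to the right, at medians of 0.79 and 0.77 for amino acid metabolism, while the eIF2 and mitochondrial lists sit at about 0.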

How the data were processed

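Single-end reads were demultiplexed with bcl2fastq, trimmed with Trim Galore 0.6.7, aligned to GRCm39 with STAR 2.7.9a and quantified with Salmon 1.10.1 (submitters' processing notes and study methods). The deposited tables hold Salmon's estimated counts, TPM and effective lengths per transcript, separately for each library. For its own tests the study summarised these estimates to genes with tximport and used DESeq2. The study names depletion of ribosomal RNA and a directional library kit, but whether counting used strand is not given in the sources used here. Estimated counts were summed per gene ID and rounded, genes with at least 10 counts over the 12 libraries were kept, and libraries were scaled by TMM. Models of the 4 groups were fitted across all genes with edgeR 4.0.16 (R 4.3.3) by the quasi-likelihood test with Benjamini-Hochberg adjustment over all genes tested. Calls required adjusted p below 0.01 together with a log2 fold change beyond 0.58 in either direction (interaction: adjusted p alone). CPM are TMM-scaled, and SE is of the log2 fold change. Deposited TPM served for levels between genes, for the ratio of Slc7a5 to Slc3a2 and for shares of transcripts. The models were also run on counts simulated from their own fitted spread, with planted changes larger than the fold limit. Such a run does not test how well the models describe these libraries.

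The 34 genes and the related lists were chosen with earlier results of these data known. Values in every library are given for each gene called in 3xKD against Neg, for the 4 kinases, Atf4 and Ddit3. Of each related list, at most 3 called genes a state, by absolute fold change, are named. Gpt2, Pck2, Ero1a and others named in one state are given in both. Alternatives were DESeq2 1.42.0, other scalings and filters, transcript-length offsets, a replicate block, robust estimation, fits of only the groups compared, other call limits and leaving out each library. DESeq2 was run on the rounded summed counts and not on tximport input as in the study. Same-numbered libraries did not deviate together. Replicates of a group differed beyond sampling noise. Promoter windows came from RefSeq (GRCm38.p6) and were placed on GRCm39 by exact match.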

Additional observations from a re-analysis of the deposited data

Results flagged for a closer look

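The effect of 3xKD differed between EpiLCs and ESCs in the interaction test of edgeR for 7 of the 34 genes, 2 of them positive (against 4.76% of all genes tested) and 5 negative (against 5.27%). The difference was 0.68 for Slc7a3 and 0.42 for Slc7a1 on the log2 scale. It was -0.68 for Stc2, -0.67 for Ddit3, -0.39 for Sesn2, -0.34 for Slc3a2 and -0.23 for Atf4. For Stc2 the 2 effects had opposite signs (0.33 in ESCs and -0.35 in EpiLCs), and for the other 6 they had the same sign and differed in size. Ddit3 was higher in Neg EpiLCs (17.9 to 19.5 CPM) than in Neg ESCs (11.9 to 12.7), while the 3xKD libraries of both states overlapped (43.6 to 49.6 and 48.2 to 49.4). The sums of naive and formative markers also differed between the lines within each state, and the part of this in the 7 differences was not tested.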

How the results depend on the processing

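With an adjusted p under 0.05 and no fold limit, 21 genes were higher and 8 lower in 3xKD ESCs (20.1% and 19.8% of all genes tested), 19 higher and 9 lower in 3xKD EpiLCs (19% and 19.1%), 10 higher and 12 lower from ESCs to EpiLCs in Neg (21.9% and 22.2%), 10 higher and 13 lower in 3xKD (20.6% and 22.0%), and the interaction was positive for 4 and negative for 8 (7.66% and 8.56%). With an absolute log2 fold change above 1, 6 were higher and 0 lower in 3xKD ESCs (4.36% and 2.91% of all genes), 8 higher and 1 lower in 3xKD EpiLCs (3.82% and 1.78%), 3 higher and 3 lower from ESCs to EpiLCs in Neg (6.59% and 6.92%), 4 higher and 3 lower in 3xKD (5.88% and 5.42%), and the interaction was positive for 0 and negative for 0 (1.29% and 0.92%). With no filter the interaction was negative for 8, against 3.81% of all genes. With transcript-length offsets it was positive for 1 and negative for 1, against 1.32% and 1.55% of all genes, so calls also fell over all genes. The cause was not tested. Those offsets reversed the change from ESCs to EpiLCs in Neg for Slc6a9 (-0.526) and Cbs (0.719), neither called. Leaving out each library gave 13 to 15 genes higher and 3 lower in ESCs, 13 to 14 higher and 2 lower in EpiLCs, 8 to 9 and 5 from ESCs to EpiLCs in Neg, 3 to 4 and 6 in 3xKD, and 2 to 3 positive and 4 to 6 negative interactions. With library size alone, 64.9% of all interaction calls were positive, against 47.4% with TMM.

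Same-numbered libraries correlated at -0.135 to 0.1 in their deviations, so the numbers were taken not to pair them. With a replicate block the counts were as before except that 3 in place of 4 genes were higher from ESCs to EpiLCs in 3xKD, Slc7a11 being lost (1.14, adjusted p = 0.0153). Depth limited Fgf21 and Slc7a11, and 3 libraries a group limit the precision of all values.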
